A study of Homo sapiens with 9 samples.

Results

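Ribosome biogenesis is the assembly of the 2 ribosomal subunits, and the 42 genes described here encode part of the machinery that carries it out, together with subunits and factors of RNA polymerase I (Pol I). The genes were chosen as a fixed list of symbols for this pathway, and the rule used no measured value. Earlier results of these data were nevertheless known when the list was chosen. The effect of that knowledge on the counts of members was not tested. All 42 were present among the 60603 genes of the table, and all 42 were among the 16093 genes abundant enough to be tested. Their levels were measured in 9 RNA-seq libraries of TC32 cells, a long-established line of Ewing sarcoma, a tumour driven by the fusion oncogene EWS::FLI1.

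The libraries formed 3 groups of 3. The siEF group had been plated on an siRNA spanning the breakpoint of the fusion transcript, the siNEG group on a nonspecific siRNA, and the media group had no siRNA according to its label. All 9 libraries shared the cell line, the genotype label WT, medium with 10% FBS and L-glutamine, the 30 h time point, polyA RNA and the single batch label 1. A single cell line and 1 time point were studied, and the labels call the libraries biological replicates without describing how the cultures were kept apart, so *P* values measure only the spread between these libraries.

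In the nucleolus, Pol I transcribes the ribosomal DNA into a long precursor RNA, which is folded, chemically modified, cut and packed with ribosomal proteins while it is still being made. Small nucleolar ribonucleoproteins (snoRNPs) place the modifications, the small subunit processome cuts out the small subunit RNA, and separate sets of factors mature both subunits and send them to the cytoplasm. The pathway is among the most costly of a growing cell, and many of its genes are known targets of the transcription factor MYC.

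Silencing was checked first, together with the depth of the libraries. Library totals ranged from 20727706 to 33134581 expected counts, and no member had fewer than 294 counts in any library. FLI1, which forms the 3′ part of the fusion transcript, averaged 37.8 ± 2 CPM (counts scaled to library size, SD, n = 3) in siEF, 48.4 ± 0.315 in siNEG and 57.9 ± 1.65 in media, and its log2 fold change for siEF against siNEG was -0.35 (adjusted *P* = 2.88e-05, edgeR's quasi-likelihood test). NR0B1, a well-known induced target of the fusion, averaged 17.6 ± 2.35 CPM in siEF, 137 ± 4.98 in siNEG and 177 ± 12.7 in media. Of the 5 Ewing sarcoma markers checked, all were measured, 4 were lower in siEF than in siNEG and CD99 was higher (log2 fold change 0.23). Over all tested genes, 31.7% were lower and 33.6% higher. Between siNEG and media, 3 of these 5 markers (NKX2-2, NR0B1 and CD99) were lower in siNEG, as were 5.96% of all tested genes. NR0B1 had a log2 fold change of -0.37. Of 5 markers of other cell types, 4 were at or near 0, with 0 to 6 counts for PTPRC, 0 or 1 for ALB and GFAP and 0 for MYOD1. PECAM1 had 30 to 144 counts and was lower in siEF than in siNEG (log2 fold change -1.22), the direction of most members. The 10 most abundant genes took 12.3% to 12.9% of the counts in siEF and 5.78% to 6.62% elsewhere, and for this reason several scalings were compared. Mitochondrial genes took 3.16% to 4.55% in siEF and 1.53% to 3.53% in the controls, overlapping ranges whose part in the results was not tested.

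The members fell together after silencing. In siEF, 41 of the 42 genes were lower than in siNEG at an adjusted *P* under 0.01, where 31.7% of all tested genes were lower. The remaining member, NOB1, was higher, as were 33.6% of all tested genes. The median member stood at 45.2% of its siNEG level, a log2 fold change of -1.15, against a median of 0.05 over all genes tested. For 27 members the log2 fold change lay below -1, as it did for 11.7% of all tested genes, and no member rose by that much.

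Together, the 42 genes had a summed level of 5399, 5368 and 5412 CPM in the siEF libraries. The same sum was 10159.6, 10138 and 10036 CPM in siNEG and 10252, 10380.1 and 10631 CPM in media. The 3 siEF sums lay far below the 6 control sums. The siNEG sums lay just below those of media, a gap in which HEATR1 alone averaged 263 CPM in siNEG and 536 in media. NCL and NPM1 made up a large part of these sums, and without them the siEF sum was 0.467 times the siNEG sum, against 0.533 with them. As shares of all counts, the members took 0.525% to 0.53% in siEF and 1.02% to 1.06% in the other libraries. In bulk RNA, fewer cells of a type and less RNA per cell cannot be told apart, and these values are shares of the sequenced RNA, not amounts per cell.

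Replicates agreed closely beside these differences. The median coefficient of variation within a group was 3.49%, and the largest was 14.4%. In 41 members every siEF library lay below every siNEG library, an order found in 37.1% of all tested genes, and in NOB1 every siEF library lay above every siNEG library, as in 39.8%. No member overlapped between siEF and siNEG, where 23.1% of all tested genes overlapped.

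**Figure D1:**
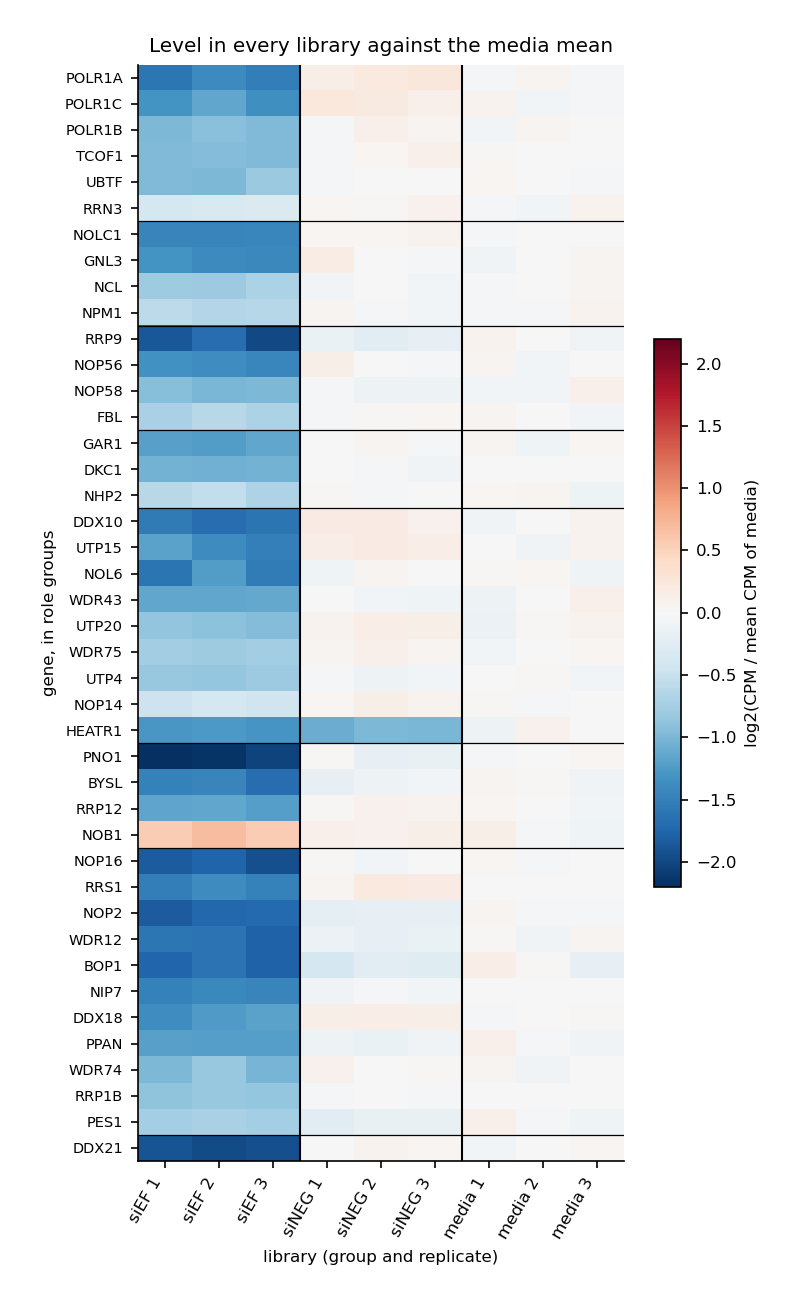
Heat map of the 42 members (rows, in role groups separated by lines) in the 9 libraries (columns), as log2 of the CPM over the mean CPM of media. The siEF columns are blue in 41 rows and red in NOB1, while the siNEG columns stay near white except in HEATR1.

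The size of the fall varied among the members far more than among replicates. Log2 fold changes of siEF against siNEG ran from -2.04 in PNO1 to 0.49 in NOB1, with quartiles of -1.49 and -0.83 and an SD of 0.51 over the 42 genes. One gene fell by at least 2 on the log2 scale, 26 lay between -1 and -2, and 14 lay between 0 and -1. PNO1 held rank 386 of the 16093 genes counted from the lowest log2 fold change, so many genes outside the pathway fell further. Neither the level per kilobase in siNEG (Spearman's rho = 0.222 over the 42 genes) nor the transcript length (rho = -0.0409) ordered the changes closely. These are correlations across genes, which are not independent replicates. Differences between members are given as values and were not tested.

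**Figure D2:**
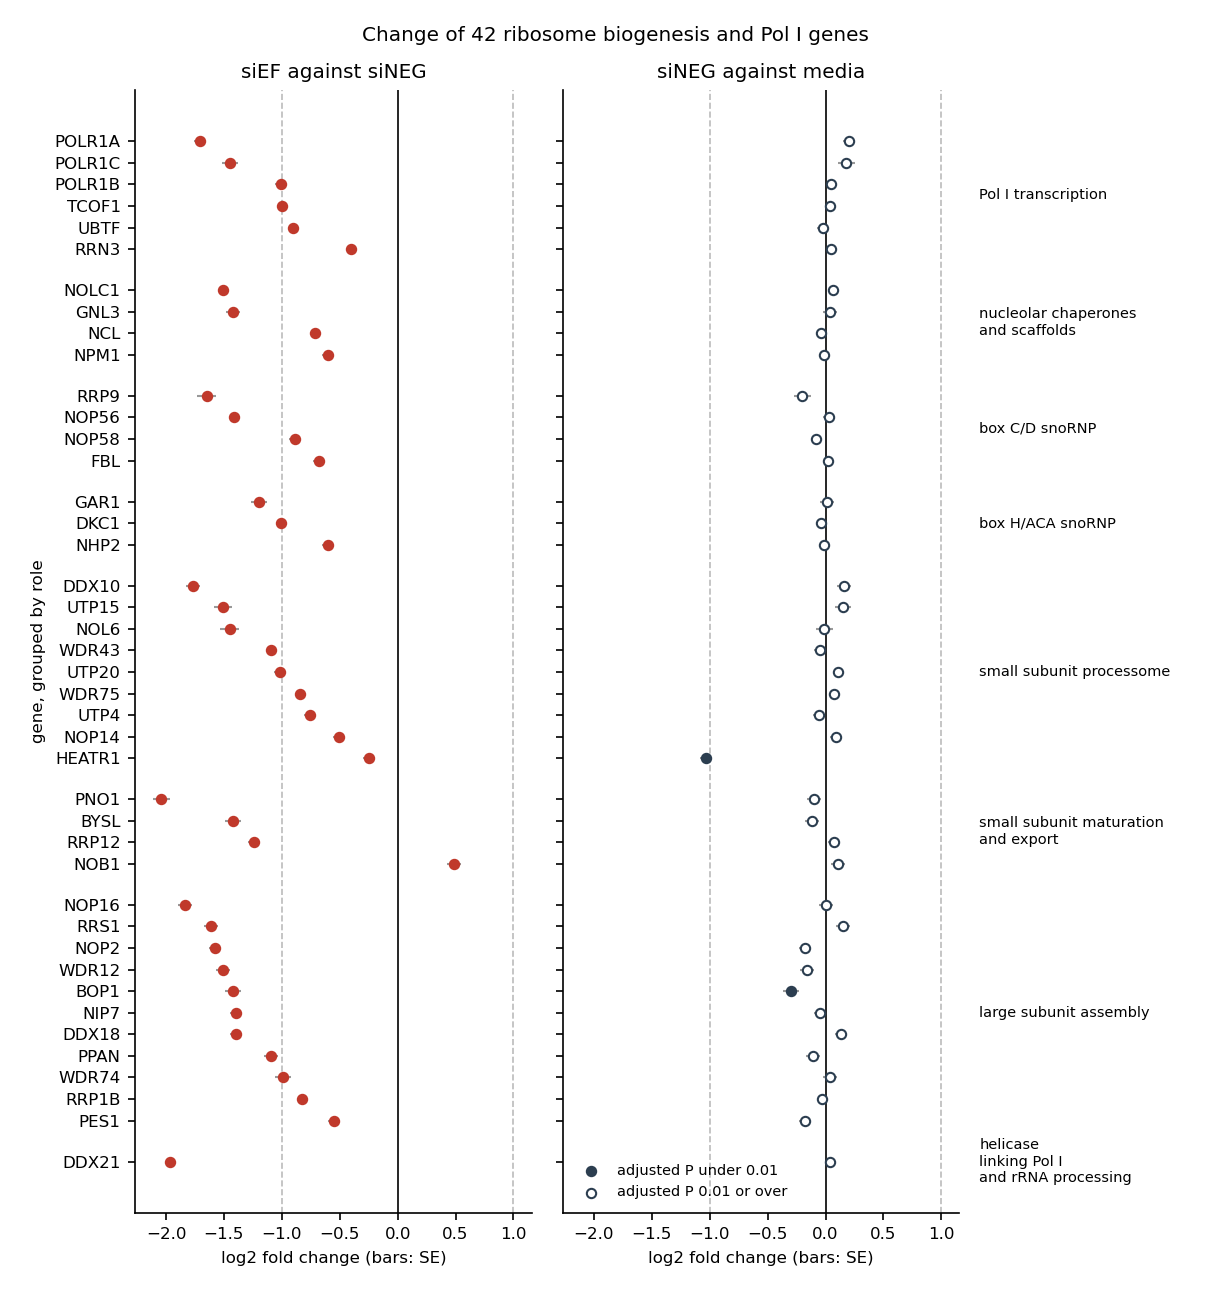
Log2 fold change of each member (points, with SE as bars) for siEF against siNEG on the left and siNEG against media on the right, with genes grouped by role and filled points for an adjusted *P* under 0.01. On the left 41 points lie below 0 and NOB1 at 0.49 above it, while on the right HEATR1 at -1.03 and BOP1 at -0.30 are filled and the other 40 are open.

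All 6 genes of Pol I transcription fell, with a median log2 fold change of -1.01. POLR1A, the largest subunit of the polymerase, measured 57.7, 65.8 and 60.8 CPM in siEF, 190.4, 202 and 208 in siNEG and 171, 181 and 170.0 in media. The siEF libraries lay far below both controls, at 30.6% of siNEG (log2 fold change -1.71, SE 0.05, adjusted *P* = 6.89e-14), and the siNEG libraries all lay above media. POLR1C, a subunit shared with Pol III, fell to 36.6% (log2 fold change -1.45), and POLR1B, the second-largest subunit, to 49.7% (-1.01). POLR1C shares 1009 exon bases with genes on the opposite strand, so reads from them could be counted for it. The other factors fell as well. UBTF, which binds the ribosomal DNA promoter, fell to 53.6% (-0.90). TCOF1, the nucleolar protein treacle, fell to 49.9%.

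RRN3, the factor that bridges Pol I to the promoter-bound factors, changed least in this set. It measured 59.2, 61.3 and 62.3 CPM in siEF, 79.9, 78.7 and 82.9 in siNEG and 76.4, 74.8 and 81.5 in media. The 3 siEF libraries lay below all 6 controls, which overlapped each other. The fall to 75.7% of siNEG was smaller than in any of the other 5 (log2 fold change -0.40, SE 0.05, adjusted *P* = 2.59e-06). RRN3 has near-identical pseudogene copies that can share its reads, so its values are less certain.

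The 4 nucleolar chaperones and scaffolds fell by unequal amounts, with a median of -1.07. NPM1, nucleophosmin, was the most abundant member per length at 1650.0 CPM per kilobase of transcript in siNEG, and NCL, nucleolin, followed at 442, while the median member stood at 41.3. NPM1 measured 1472, 1402 and 1429.9 CPM in siEF, 2282, 2137 and 2115 in siNEG and 2126, 2144 and 2325 in media. Both genes fell by less than the median member, NPM1 to 65.9% of siNEG (log2 fold change -0.60, adjusted *P* = 4.74e-09) and NCL to 61.2% (-0.71). NPM1 has many processed pseudogenes that can share its reads, so its level is less certain than that of single-copy genes. NOLC1, a chaperone of snoRNPs, fell from 383, 384 and 393 CPM in siNEG to 136, 135 and 137 in siEF (-1.51, SE 0.04, adjusted *P* = 6.12e-15). GNL3, the GTPase nucleostemin, fell to 37.3% (-1.42).

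**Figure D3:**
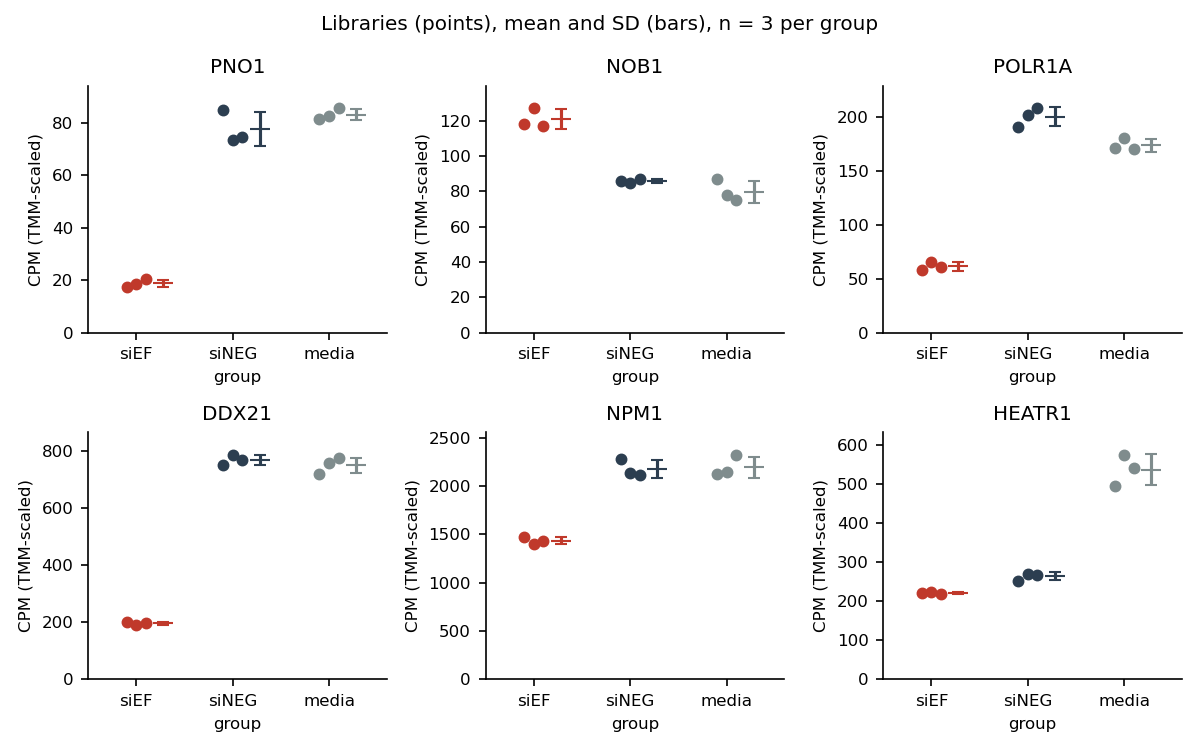
CPM of 6 members in each library (points) with the group mean and SD (bars, n = 3), each panel on its own linear axis from 0. PNO1, POLR1A, DDX21 and NPM1 are lower in siEF than in both controls, NOB1 is higher, and HEATR1 is lower in both siRNA groups than in media.

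Transcripts for proteins of the modifying snoRNPs fell in both classes, while the particles themselves were not measured. Box C/D snoRNPs guide methylation of ribosomal RNA, and the 4 genes for their proteins had a median log2 fold change of -1.15. RRP9, which binds the U3 snoRNA, changed most among them, with 12.6, 14.4 and 11.6 CPM in siEF against 41.4, 38.7 and 40.4 in siNEG and 48.3, 46.3 and 43.4 in media (log2 fold change -1.65, SE 0.08, adjusted *P* = 7.25e-12). The siEF libraries held less than the lowest control by a wide margin. The core proteins NOP56 and NOP58 fell to 37.7% and 53.8% of siNEG. FBL, the methyltransferase fibrillarin, changed least, from 325, 333 and 339.5 CPM in siNEG to 201, 216 and 204 in siEF (-0.68, adjusted *P* = 6.35e-10).

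Box H/ACA snoRNPs guide the conversion of uridine to pseudouridine, and the 3 genes for their proteins had a median of -1.01. GAR1 fell to 43.7% of siNEG (log2 fold change -1.20), and DKC1, the pseudouridine synthase dyskerin, fell to 49.6% (-1.01). NHP2 fell to 66.1% (-0.60, adjusted *P* = 2.97e-08). In both classes the transcripts for subunits of 1 particle therefore stood at different shares of their siNEG level.

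All 9 genes of the small subunit processome fell, with a median of -1.02. DDX10, an RNA helicase, changed most. It measured 25.1, 23 and 24.3 CPM in siEF, 83.7, 84 and 78.9 in siNEG and 70.0, 73.5 and 77.9 in media, and the siEF libraries lay below all controls at 29.4% of siNEG (log2 fold change -1.77, SE 0.06, adjusted *P* = 1.70e-13). NOL6 fell to 36.7% (-1.45), UTP20 to 49.3% (-1.02) and NOP14 to 70.0% (-0.51). NOP14 shares exon sequence with NOP14-AS1 on the opposite strand, and the strand setting of the counting is not given in the sources used here.

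Within the processome, 5 members belong to the UTP-A subcomplex, which joins the precursor RNA first. They differed widely, with UTP15 at 35.2% of siNEG (log2 fold change -1.51), WDR43 at 47% (-1.09), WDR75 at 55.9% (-0.84), UTP4 at 58.9% (-0.76) and HEATR1 at 84.1% (-0.25). UTP15 was the least abundant member per length, at 9.57 CPM per kilobase in siNEG. HEATR1 showed the smallest fall of the 41 genes.

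HEATR1 had its main difference between the controls. It measured 221, 223 and 219 CPM in siEF, 251, 269.9 and 267 in siNEG and 494, 574 and 540.2 in media. Both siRNA groups lay below every media library, and the siEF libraries below every siNEG library. The log2 fold change was -1.03 (SE 0.05, adjusted *P* = 3.20e-09) for siNEG against media, -0.25 (SE 0.05, adjusted *P* = 0.000421) for siEF against siNEG and -1.28 (adjusted *P* = 1.34e-12) for siEF against media. Over 2095 bases its exons overlap those of LGALS8 on the opposite strand, so reads from that gene could be counted for it. LGALS8 stood at 159.5 CPM in siEF, 77.4 in siNEG and 78.1 in media, and its part in the HEATR1 values was not tested.

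The factors that mature and export the small subunit held both the largest fall and the only rise. PNO1, an assembly factor that binds the endonuclease NOB1 on the maturing subunit, measured 17.5, 18.6 and 20.3 CPM in siEF, 85, 73.3 and 74.5 in siNEG and 81.4, 82.6 and 85.5 in media. The controls overlapped and the siEF libraries lay at 24.3% of siNEG, a 4.12-fold fall (log2 fold change -2.04, SE 0.07, adjusted *P* = 2.24e-13). Its partner NOB1, which makes the final cut of the small subunit RNA, moved the other way. NOB1 measured 118, 127 and 117 CPM in siEF, 86, 84.9 and 86.8 in siNEG and 86.8, 77.7 and 74.9 in media. The siEF libraries lay above all 6 controls (log2 fold change 0.49, SE 0.06, adjusted *P* = 7.55e-07), and against media the rise was 0.59 on the log2 scale. NOB1 shares 429 exon bases with NQO1-DT on the opposite strand. BYSL and RRP12, which act in small subunit assembly and export, fell to 37.3% (-1.42) and 42.4% (-1.24).

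All 11 genes of large subunit assembly fell, and their median log2 fold change of -1.40 was the lowest among the roles with more than 1 gene. Their summed level in siEF was 0.438 times that in siNEG, against 0.48 for Pol I transcription, 0.573 for the processome and 0.603 for the chaperones. Such sums weigh abundant genes most. HEATR1, itself lower in siNEG than in media, held 263 of the processome's 1144 CPM in siNEG. NPM1 and NCL held 2178 and 1733 of the chaperones' 4462 CPM. NOP16 led the genes of large subunit assembly, with 15.8, 16.7 and 14.8 CPM in siEF, 57.5, 54.3 and 56.9 in siNEG and 58.2, 54.9 and 56.2 in media (log2 fold change -1.84, SE 0.06, adjusted *P* = 1.58e-13). RRS1, which helps to bring in the smallest ribosomal RNA, fell to 32.7% (-1.61), NOP2, a methyltransferase of ribosomal RNA, to 33.5% (-1.58), and the helicase DDX18 to 38% (-1.40). NIP7 stood at 38% (-1.40), PPAN at 46.8% (-1.09), WDR74 at 50.2% (-0.99) and RRP1B at 56.3% (-0.83). NOP2 and PPAN share exon sequence on their own strand with an unnamed gene model and with PPAN-P2RY11, so their reads could be split. NIP7 shares 873 exon bases with COG8 on the opposite strand, and further members overlap opposite-strand genes in the same way.

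The PeBoW complex, built from PES1, BOP1 and WDR12, is needed for processing of the large subunit RNA. Its 3 genes fell unequally, with WDR12 at 35.1% of siNEG (log2 fold change -1.51), BOP1 at 37.4% (-1.42) and PES1 at 68.4% (-0.55). PES1 measured 112, 115 and 113 CPM in siEF, 161, 169 and 169 in siNEG and 204, 184 and 178 in media. The 3 groups did not overlap in PES1, and the siEF libraries were lowest. PES1 was the gene of large subunit assembly that changed least (adjusted *P* = 5.09e-08).

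DDX21, a helicase that acts in Pol I transcription as well as in ribosomal RNA processing, had the second-largest fall of the 42. It measured 200.5, 191 and 197 CPM in siEF, 749.9, 786 and 769 in siNEG and 719, 756 and 774 in media. The controls overlapped, and the siEF level was 25.5% of siNEG (log2 fold change -1.97, SE 0.04, adjusted *P* = 1.22e-15). DDX21 was abundant, at 165 CPM per kilobase of transcript in siNEG, where PNO1 stood at 34.6.

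With media as the control, siEF gave similar counts, since both comparisons use the same siEF libraries. In siEF, 41 members were lower than in media and NOB1 higher, where 32.3% and 33.6% of all tested genes were lower and higher. The median log2 fold change was -1.20, and 25 members lay below -1, as did 12.5% of all tested genes.

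Between siNEG and media, 2 of the 42 (4.76%) were lower at an adjusted *P* under 0.01, HEATR1 and BOP1, a share near the 5.96% of all tested genes that were lower. None was higher, where 3.83% of all tested genes were. At an unadjusted *P* under 0.05, 13 members differed, 7 higher and 6 lower in siNEG, where 13.9% and 16.3% of all tested genes were higher and lower. DESeq2 called 4 lower and 1 higher, where 8.39% and 5.91% of the 13277 genes it gave an adjusted *P* were lower and higher. For 39 members the log2 fold change was within 0.2 of 0, and the median over the 42 was 0.00. In 7 members every siNEG library lay below every media library, an order found in 17.3% of all tested genes, in 9 every siNEG library lay above (15.5% of all tested genes), and 26 overlapped (67.3%).

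BOP1 measured 99, 109 and 107 CPM in siNEG and 142, 132 and 114 in media (log2 fold change -0.30, SE 0.07, adjusted *P* = 0.00687). The groups did not overlap, but the gap from the highest siNEG library to the lowest media library was narrow. The call was lost without any 1 of siEF replicate 1, the 3 siNEG libraries, or media replicates 1 and 2, with adjusted *P* values from 0.0106 to 0.0487. POLR1A, higher by 0.20 in siNEG, missed the threshold with an adjusted *P* of 0.0121.

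The other genes of ribosome biogenesis and Pol I were mostly lower as well, with a smaller median change. All 113 such genes were tested. In siEF 100 of them were lower than in siNEG, where 31.7% of all tested genes were. Another 4 were higher (RIOK3, NOP53, NMD3 and POLR1D), against 33.6%, and the median log2 fold change of the 113 was -0.75. For 36 of the 113 the change lay below -1, as for 11.7% of all tested genes. The summed level of the 113 was 5826 to 5849 CPM in siEF, 9384 to 9507 in siNEG and 9519 to 9767 in media. Between siNEG and media, 7 of the 113 (6.19%) were lower, a share near the 5.96% of all tested genes. The 1 that was higher made 0.885%, against 3.83% of all tested genes.

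Among the remaining subunits and factors of Pol I, the 4 specific subunits all fell. Over all tested genes, 31.7% were lower and 33.6% higher in siEF than in siNEG. CD3EAP (now POLR1G) measured 9.21, 10.9 and 8.12 CPM in siEF, 38.2, 37.2 and 37.2 in siNEG and 53.6, 44.1 and 52.2 in media. Its 3 groups did not overlap, and it fell nearly as far as PNO1 (log2 fold change -2.01, adjusted *P* = 1.06e-11). TWISTNB (now POLR1F) fell by 0.68 on the log2 scale. The siNEG levels of both were in turn below media, by log2 fold changes of -0.41 and -0.28. POLR1D, a subunit shared by Pol I and Pol III, rose instead, from 48.3 ± 0.253 to 60.5 ± 0.566 CPM (SD, n = 3, log2 fold change 0.32, adjusted *P* = 1.99e-05). Of 6 further initiation and termination factors, 4 fell and 2 did not pass the test, led by TAF1A (-0.79) with a median of -0.35.

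Transcripts of subunits of all 3 nuclear RNA polymerases were lower after silencing, as were 31.7% of all tested genes, while 33.6% were higher. The 5 subunits shared by Pol I, Pol II and Pol III fell with a median of -0.74, led by POLR2K (-1.37) and POLR2H (-0.99). Of 7 Pol II-specific subunits 6 fell, among them POLR2D (-1.15) and POLR2G (-1.03). The largest Pol II subunit, POLR2A, did not pass the test, with 349.8 ± 8.39 CPM in siEF and 332 ± 3.6 in siNEG (SD, n = 3, log2 fold change 0.08, adjusted *P* = 0.0926). Of 11 Pol III-specific subunits 8 fell and 1 rose. POLR3G measured 5.13, 2.79 and 4.08 CPM in siEF against 34.2, 31.3 and 30.5 in siNEG (-2.97, adjusted *P* = 1.95e-11), and POLR3K fell by 2.36 on the log2 scale. The paralog POLR3GL rose, from 19.7 to 26.3 CPM (0.41, adjusted *P* = 4.46e-05).

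**Figure D4:**
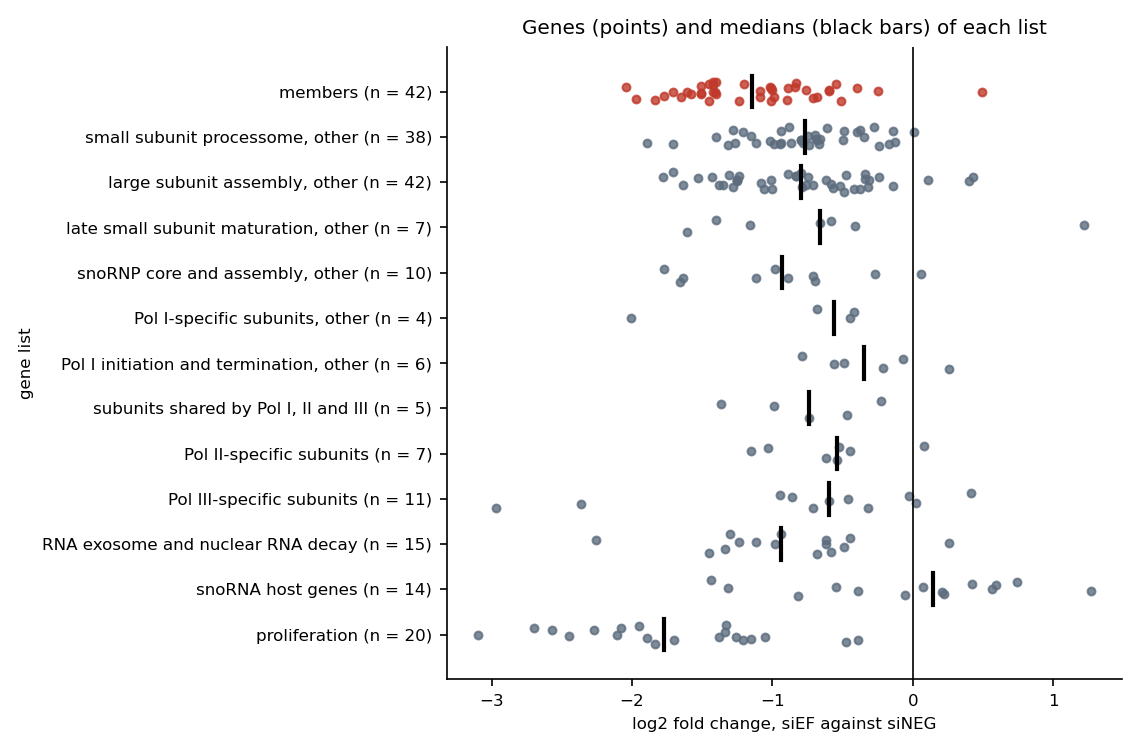
Log2 fold change of siEF against siNEG for each gene (points) and the median (black bar) of the members and 12 other gene lists, with the number of genes plotted. The members have a median of -1.15, the snoRNA host genes 0.14 and the proliferation genes -1.77.

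Among the assembly factors outside the 42, the small subunit processome had 34 of 38 genes lower and none higher, led by PWP2 (log2 fold change -1.89) and NOL11 (-1.71), the latter a UTP-A protein. For this and the following lists, 31.7% of all tested genes were lower and 33.6% higher in siEF than in siNEG. Large subunit assembly had 38 of 42 lower, led by BRIX1 (-1.78) and NOC3L (-1.71), and 2 higher, the export adaptor NMD3 (0.40) and NOP53 (0.43). In late small subunit maturation 6 of 7 were lower, with LTV1 at -1.61 and TSR1 at -1.40. RIOK3, a kinase of the pre-ribosome, rose from 46.5 ± 1.13 CPM in siNEG to 108 ± 7.41 in siEF (SD, n = 3, 1.22, adjusted *P* = 1.42e-11). Of 10 other snoRNP core and assembly genes 9 were lower, with NAF1 at -1.77 and RUVBL1 at -1.66.

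Genes of cell growth and division moved with the members. MYC stood at 56.2, 60.7 and 55.2 CPM in siEF, 136, 129 and 144 in siNEG and 135, 123 and 126 in media. Its siEF libraries lay below all controls, which overlapped each other (log2 fold change -1.25, SE 0.06, adjusted *P* = 5.21e-12). MYCN was also lower (adjusted *P* = 0.000101), at a mean of 0.523 CPM in siEF and 2.03 in siNEG. The other genes of the family list, MYCL and MAX, did not pass the test, with log2 fold changes of -0.24 (adjusted *P* = 0.206) and 0.10 (adjusted *P* = 0.178). All 20 proliferation genes were lower in siEF than in siNEG, where 31.7% of all tested genes were. The 20 had a median of -1.77, led by MCM4 (-3.10) and E2F1 (-2.70). Their summed level was 2167 to 2285 CPM in siEF, 6021 to 6142 in siNEG and 6169 to 6331 in media. The part of MYC or of proliferation in the members' fall was not tested.

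Promoter sequences were searched for short motifs as a description, among them the E-box, which MYC can bind. Any part of MYC in the members' changes was not tested. RefSeq promoter windows of 300 bases (GRCh38.p14, from 250 bases before to 50 after a transcription start) matched 34 of the 42 genes, with 43 windows. The E-box CACGTG, which reads the same on both strands, lay in the windows of 14 of the 34 genes (41.2%), against 12.5% of the 10941 tested genes with a window. All 14 E-boxes began within 50 bases of the start, between 31 bases before and 36 after it, whereas 37.7% of the 1665 E-boxes of tested genes did so. Counted over windows, the shares were 32.6% for the members and 9.25% for tested genes.

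E-boxes of 8 members that span the range of change are given 5′ to 3′ on the gene's strand, with the E-box in capitals and 10 bases on either side. The windows are chr2:68157638-68157937 (+) for PNO1, chr10:68956397-68956696 (+) for DDX21, chr3:51941855-51942154 (-) for RRP9, chr9:33473875-33474174 (-) for NOL6, chr6:41921249-41921548 (+) for BYSL, chr16:69132399-69132698 (+) for UTP4, chr19:39846330-39846629 (-) for FBL and chr22:30591861-30592160 (-) for PES1.
PNO1: tgcagctgcgCACGTGtttcagccgg
DDX21: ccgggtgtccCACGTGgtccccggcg
RRP9: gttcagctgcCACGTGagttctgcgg
NOL6: catttccgccCACGTGggaagctatg
BYSL: cttcagtcccCACGTGcgatccttcc
UTP4: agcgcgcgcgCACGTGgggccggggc
FBL: cgctcttttcCACGTGcgaaagcccc
PES1: cttggcagggCACGTGcgggaggaag
The E-box began 10 bases after the start in PNO1, 29 in BYSL, 14 in NOL6 and PES1, and 7 in FBL. It began 31 bases before the start in DDX21, 16 in UTP4 and 5 in RRP9. The 14 genes with an E-box had a median log2 fold change of -1.31 for siEF against siNEG, from -2.04 in PNO1 to -0.51 in NOP14, and the 20 without one had -1.01, from -1.84 in NOP16 to 0.49 in NOB1. The ranges overlapped over most of their length.

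A site for ETS factors, the family of FLI1, was searched as CCGGAAGT and its reverse complement ACTTCCGG. It lay in the windows of 8 of the 34 genes (23.5%), against 9.51% of tested genes. The Pol I genes among them are shown with the site in capitals, in windows at chr2:112542215-112542514 (+) for POLR1B, chr6:43516839-43517138 (+) for POLR1C and chr16:15094286-15094585 (-) for RRN3.
POLR1B: tgcggccactACTTCCGGcgtgtaccga
POLR1C: gacaaaagcaACTTCCGGaagctgggga
RRN3: ggcacgcgcaACTTCCGGgacagaggct
The 8 genes with this site had a median log2 fold change of -1.05, from -1.97 in DDX21 to -0.40 in RRN3, and the 26 without it had -1.25. UTP4 held both motifs in the same window, and GAR1 and DDX21 held them in separate windows of different transcription starts. A match is a description of the letters and shows no binding, and none of these motif counts was tested.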

How the data were processed

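Polyadenylated RNA of 9 TC32 libraries was sequenced, and the labels name a small RNA library kit beside polyA RNA. Following the study's methods, the authors aligned the reads (STAR 2.7.1a, hg38) and quantified genes with RSEM 1.3.1, and cutadapt 2.10, FastQC and DESeq2 1.32.0 are named in the submitters' processing notes. The deposited values are expected counts per gene, unscaled and not pooled. The annotation release and the strand setting are not given in the sources used here. Of the 60603 identifiers, 60306 (99.5%) were in GENCODE 44 (GRCh38), which gave positions, exon overlaps and the canonical transcript lengths used for CPM per kilobase. Groups and replicate numbers came from the sample titles. All 9 columns were used, none were identical, and replicate pairs differed beyond sampling noise (chi-square per degree of freedom 3.57 to 23.2 over genes with at least 20 counts).

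Expected counts were rounded, filtered with filterByExpr (16093 genes), scaled by TMM (factors 0.97 to 1.03) and compared by edgeR's quasi-likelihood test (edgeR 4.0.16, R 4.3.3), with 1 mean per group and a spread shared by all 9 libraries. *P* values were adjusted by Benjamini-Hochberg over all tested genes and called at 0.01. Standard errors are the absolute log2 fold change over the square root of F. CPM use TMM-scaled library sizes. The procedure was tested on simulated data in which far fewer genes changed than here, equally up and down. That simulation cannot judge the choice of scaling for these data. The members and all gene lists were chosen with earlier results of these data known, so lists are described by counts and medians without a test. The genes named in other lists are mostly the 2 with the largest change among those called, plus those moving the other way, MYC, FLI1, NR0B1, LGALS8 and POLR2A. Of the snoRNA host genes that were higher, only EPB41L4A-AS1 and GAS5 are named. In all, 3 list genes were found under older symbols, and promoters came from RefSeq.

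Alternatives were DESeq2 1.42.0, RLE, upper quartile and total-count scaling, a test against a 1.2-fold change, no filter, a minimum of 10 counts per library, a fit of the 6 libraries of a comparison alone, a replicate block, an adjusted *P* under 0.05, a log2 fold change beyond 1, unrounded counts, protein-coding genes only and each library left out in turn.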

Additional observations from a re-analysis of the deposited data

How the results depend on the processing

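The counts of 41 members lower and 1 higher in siEF, against siNEG as well as against media, were the same under all alternatives but 2. The requirement of a log2 fold change beyond 1 left 27 lower and 0 higher against siNEG and 25 lower and 0 higher against media, and the test against a 1.2-fold change left 40 lower, without HEATR1 against siNEG and without RRN3 against media. Single members were followed under 15 other scalings, tests, fits and left-out libraries, which did not include the 1.2-fold test or the log2 fold change cut-off. Under these 15, all 630 values of the 42 members for siEF against siNEG kept their direction and their call. Their median log2 fold change was -1.06 with upper quartile scaling, -1.21 with total counts, -1.16 with DESeq2 and -1.12 with at least 10 counts in every library, and -1.18 to -1.14 with 1 library left out. Against media it was -1.21 with RLE scaling or DESeq2, -1.10 with upper quartile scaling, -1.23 with total counts and -1.16 with at least 10 counts, and -1.24 to -1.18 with 1 library left out. Scaling shifts all genes alike, so the members' median minus that of all genes says nothing about the choice of scaling. For siEF against siNEG it was -1.19 under TMM, RLE, upper quartile and total-count scaling. With DESeq2 it was -1.26 and with at least 10 counts in every library -1.15. For siNEG against media, members lower numbered 4 with DESeq2 or an adjusted *P* under 0.05, 1 with total counts, the test against 1.2-fold, the 6 libraries or a log2 fold change beyond 1, and 1 to 3 with 1 library left out. Members higher numbered 1 with upper quartile scaling, total counts, DESeq2, no filter, at least 10 counts, protein-coding genes, an adjusted *P* under 0.05 or the replicate block, and 0 to 1 with 1 library left out, the gene being POLR1A. The median was 0.01 with upper quartile scaling or at least 10 counts, 0.03 with total counts and 0 to 0.01 with 1 library left out. Of 630 single values for this comparison 613 kept their call, 8 lost it (BOP1), 9 gained one (NOP2, PES1 and POLR1A) and 0 reversed. The cause of these differences was not tested. Replicate numbers did not pair the libraries (correlation of same-numbered deviations between -0.0875 and 0.0482), and with the replicate block 41 members were lower and 1 higher in siEF than in siNEG, with a median of -1.15. Precision is limited by 3 libraries per group and, for the least abundant members, by counts as low as 294 in a library.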

Other observations

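Most transcripts of nuclear RNA decay factors were lower after silencing. The 15 genes of the RNA exosome and nuclear RNA decay trim and destroy ribosomal precursor fragments among other RNAs. Of these, 14 were lower in siEF than in siNEG, with a median log2 fold change of -0.94. Over all tested genes 31.7% were lower. EXOSC8, a subunit of the exosome ring, measured 6.03, 6.02 and 6.48 CPM in siEF against 32.2, 28 and 28.9 in siNEG (-2.26, SE 0.09, adjusted *P* = 9.38e-13, edgeR's quasi-likelihood test), and EXOSC7 fell by 1.45 on the log2 scale. The groups did not overlap in EXOSC8. The nuclear catalytic subunit EXOSC10 was higher, at 140.2 ± 6.77 CPM in siEF and 117 ± 2.8 in siNEG (SD, n = 3, log2 fold change 0.26, adjusted *P* = 0.00018).

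Host genes of small nucleolar RNAs, which carry the guide RNAs of snoRNPs in their introns, moved both ways. All tested genes also moved both ways, with 31.7% lower and 33.6% higher in siEF than in siNEG. Of the 14 host genes tested, 5 (35.7%) were lower and 7 (50%) higher, with a median of 0.14. With total-count scaling 5 were lower and 5 higher, and with DESeq2 5 and 6. SNHG12 (-1.44) and SNHG15 (-1.32) were among the lower genes. EPB41L4A-AS1 measured 20.7, 18 and 21.9 CPM in siEF against 8.85, 8.19 and 8.27 in siNEG (1.27, adjusted *P* = 1.64e-09), and GAS5 rose from 166 ± 20.7 to 249.9 ± 7.75 CPM (SD, n = 3, 0.59, adjusted *P* = 1.66e-06).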
